A study of Homo sapiens with 12 samples.

Results

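The genes described here build and move the melanosome, the pigment organelle of melanocytes, and were taken by symbol from a list of 42 genes: the Hermansky-Pudlak complexes BLOC-1, BLOC-2 and BLOC-3, the adaptors AP-3 and AP-1, Rab GTPases, motor adaptors, fusion factors and a few cargo genes. Of the 42, 40 had a value among the 12616 genes of the expression table, and the 2 without one were BLOC1S5 and AP3S2. The rule names genes and uses no measured value, but the list was drawn up with earlier results of these data known. The 10 melanocytic markers checked, among them PMEL, MLANA and TYRP1, were all listed. Their summed level, in reads per 1000000 reads of the effective library size (called normalised reads here), was 13201 to 13392 in the MeWo controls and 11316 to 12617 in the SkMel28 controls. With doxycycline (Dox) the sum was 6543 to 8237 in MeWo and 6807 to 7011 in SkMel28. The 10 did not move together. In MeWo 8 were called lower and 2 higher with Dox, DCT (0.91) and PAX3 (0.47, log2), where 16.7% of all genes were called. Of the 8, SOX10 and TYR overlapped between Dox and control. MeWo Dox replicate 1 held SOX10 at 312 and TYR at 389, with controls at 289 to 296 and 346 to 398. In SkMel28 5 were called lower and none higher, where 10.9% of all genes were called. SOX10 (0.27), TYR (0.28) and PAX3 (0.12) were above 0 there without a call.

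Melanosomes are lysosome-related organelles. BLOC-1, BLOC-2, AP-3 and AP-1 sort pigment enzymes out of endosomes, RAB32 and RAB38 guide the carriers, and BLOC-3, formed by HPS1 and HPS4, is the exchange factor that loads these Rab proteins with GTP. Mature melanosomes carry RAB27A, which binds melanophilin (MLPH), and MLPH binds the actin motor myosin Va (MYO5A), so that the organelle is held at the cell edge. Loss of members of this machinery causes pigment dilution in Griscelli, Hermansky-Pudlak and Chediak-Higashi syndromes.

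MeWo and SkMel28 are established human melanoma lines. A hairpin RNA that targets MITF, a transcription factor of the melanocyte lineage, could be switched on by Dox in both, and the control groups carried it too. The 4 groups of 3 libraries were MeWo with 0 or 1 µg/ml Dox and SkMel28 with 0 or 1 µg/ml Dox, kept for 8 days and read by 3′ end RNA sequencing. Because no hairpin-free line with Dox is analysed here, hairpin and drug cannot be told apart, and because the labels give EMEM for MeWo and RPMI for SkMel28, line and medium cannot be told apart. Nothing in the labels says that the 3 libraries of a group came from separate experiments, so p-values measure the spread between these libraries, which may be technical.

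MITF family proteins are known to bind the E-box CACGTG and the related CATGTG. For 30 of the 40 measured members RefSeq promoter windows of 250 bases before an annotated start were at hand (GRCh38.p14), and both strands were searched for these letters, with CATGTG also read as its reverse complement CACATG. The E-box CACGTG stood in a window of 6 of the 30 members (20%), ATP7A, BLOC1S1, BLOC1S3, HPS3, HPS5 and MLPH, against 7.73% of all 27305 genes with a window. The longer palindrome TCACGTGA, which contains CACGTG, stood in 4 of 30 (13.3%), ATP7A, BLOC1S1, HPS3 and HPS5, against 1.04% of these 27305 genes. CATGTG stood in 5 of 30 (16.7%), AP3S1, BLOC1S3, HPS4, LYST and MC1R, against 11.5%. The 5 windows of RAB27A and the 3 of BLOC1S2 held none of these letters. Each gene counted once if any of its windows matched. Counting BLOC1S5 and AP3S2, 32 genes of the list held 56 windows, whereas the 27305 genes held 35116. Genes of the list thus had more windows each, and the shares per gene are not like for like. The 27305 genes were also not limited to the 12616 of the expression table, as the 30 members were. Of all 35116 windows 6.34% held CACGTG, 0.854% TCACGTGA and 9.42% CATGTG. The share among the 56 windows of the list was not computed, so these window shares cannot be set against the shares per gene. A match describes letters only, and the shares were not tested.

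Of the 10 members with these letters 7 were called with Dox in at least 1 line. Of all 40 measured members 19 were, among them RAB27A and BLOC1S2, whose windows held none of these letters. Of all genes 16.7% were called in MeWo and 10.9% in SkMel28, and the share called in at least 1 line was not computed. Whether calls were more frequent among members with the letters was not tested. The windows of 4 of the 7 are shown as examples, chosen after their values were seen, with the letters in capitals. MLPH was lower in both lines, HPS3 and BLOC1S3 were lower in MeWo and LYST was higher in SkMel28. The 3 called but not shown are HPS4, HPS5 and AP3S1, and ATP7A, BLOC1S1 and MC1R held the letters without a call. MLPH and HPS3 hold CACGTG 35 and 30 bases before the start, BLOC1S3 holds CATGTG at 160 and CACGTG at 87 bases, and LYST holds CATGTG at 35 bases. Of the 2 windows of MLPH only the 1 shown holds the letters. LYST has 3 windows: an overlapping one (chr1:235883709-235883958) holds the same CATGTG, and a separate one (chr1:235866907-235867156) holds none. The MLPH window (chr2:237487001-237487250, plus strand) lies within the annotated MLPH gene, outside its exons, and 137 of its bases fall in an exon of an overlapping non-coding RNA. The HPS3 window (chr3:149129388-149129637, plus strand) overlaps no annotated gene. The BLOC1S3 window (chr19:45178534-45178783, plus strand) lies inside the gene MARK4 but in none of its exons. The LYST window (chr1:235883714-235883963, minus strand) reaches 11 bases into an annotated exon of LYST.
MLPH: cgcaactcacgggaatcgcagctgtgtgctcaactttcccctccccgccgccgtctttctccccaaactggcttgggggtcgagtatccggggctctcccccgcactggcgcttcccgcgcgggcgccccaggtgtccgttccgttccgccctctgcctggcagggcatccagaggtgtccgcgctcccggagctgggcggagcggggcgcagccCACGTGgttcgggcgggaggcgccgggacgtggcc
HPS3: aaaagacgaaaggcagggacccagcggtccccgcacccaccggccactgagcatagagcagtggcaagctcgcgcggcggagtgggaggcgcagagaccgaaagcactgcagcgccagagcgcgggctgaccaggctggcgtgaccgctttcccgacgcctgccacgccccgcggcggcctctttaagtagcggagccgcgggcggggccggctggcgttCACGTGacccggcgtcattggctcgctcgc
BLOC1S3: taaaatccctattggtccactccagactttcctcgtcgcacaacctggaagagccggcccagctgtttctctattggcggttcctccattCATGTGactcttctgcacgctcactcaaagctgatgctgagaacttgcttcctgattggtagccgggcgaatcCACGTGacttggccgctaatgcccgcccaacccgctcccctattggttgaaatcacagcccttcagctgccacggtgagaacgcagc
LYST: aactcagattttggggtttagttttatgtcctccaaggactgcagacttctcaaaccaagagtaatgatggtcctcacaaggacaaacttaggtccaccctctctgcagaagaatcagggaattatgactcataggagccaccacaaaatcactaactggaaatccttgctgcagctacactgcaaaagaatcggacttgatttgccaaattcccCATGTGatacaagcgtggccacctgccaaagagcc

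The 12 libraries held 2568187 to 3714608 reads each, so that 1 read is worth 0.278 to 0.389 in normalised reads. MITF itself was at 657, 663 and 708 normalised reads in MeWo control and at 451, 354 and 371 with Dox, a change of -0.79 ± 0.11 (log2, SE; adjusted p = 6.49e-05). In SkMel28 it was at 861, 739 and 792 without Dox and at 575, 578 and 552 with it (-0.49 ± 0.11, adjusted p = 0.00705). One library stood apart: MeWo Dox replicate 1 was the Dox library nearest to the control mean in 27 of the 40 members (67.5%) and in 54.8% of all genes with a mean of at least 10. The median SD of the members (log2) was 0.277 in MeWo Dox and 0.120 in MeWo control. Counts for MeWo are therefore also given without that library. It was picked out by its nearness to the controls, which is the outcome tested. Leaving it out thus favours larger changes and smaller p-values, and results without it are no separate evidence. No keratinocyte (0 of 4) or endothelial (0 of 3) marker was listed, while 2 of 6 fibroblast markers (DCN and LUM) and 1 of 4 leukocyte markers (CD68) were. The fibroblast sum was 41.5 to 47.8 in MeWo control and 9.85 to 19.2 with Dox, and 10.9 to 13.3 and 6.04 to 8.91 in SkMel28. CD68 was at 132 to 151 and 57.5 to 147 in MeWo, and at 78.2 to 101 and 18.7 to 23.0 in SkMel28, and the part of other cells in the results was not tested.

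On the authors' scaling more members were lower than higher with Dox in both lines. In MeWo 13 of the 40 were lower and 1 was higher at an adjusted p under 0.05, 14 in all or 35%, against a background of 16.7% of all genes called (8.12% lower and 8.58% higher). In SkMel28, 6 were lower and 3 higher, 9 in all or 22.5%, against 10.9% of all genes (5.04% lower and 5.88% higher). The median change of the 40 was -0.21 in MeWo and -0.11 in SkMel28 (log2), where the median of all genes was 0 and 0.0029. RAB27A, MLPH, BLOC1S2 and HPS4 were lower in both lines (4 of 40, where 1.79% of all genes were). No member was called higher in both lines, where 1.91% of all genes were. None was called in opposite directions, for which the share of all genes was not computed. In such bulk libraries, fewer cells that express a gene and less RNA per cell cannot be told apart.

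The MeWo count depended on the library that stood apart and on the scaling. Without MeWo Dox replicate 1 it was 22 members, 17 lower and 5 higher, with 31.0% of all genes called. These 22 held 13 of the 14, all but RAB7A. It was 9 without MeWo control replicate 1 (12% of all genes called), 8 without control replicate 2 (10.2%), 9 without Dox replicate 3 (10.3%), and 7 with MeWo fitted alone (6.44%). Scaling to the spike-in RNAs moved the median of all genes by 0.22 in MeWo (log2) and gave 8 members lower and 7 higher there, with 19.6% of all genes called. RAB38, RAB7A, BLOC1S3, AP3S1 and BACE2 then lost their call (adjusted p = 0.141 to 0.891), and BLOC1S1, SNAPIN, HPS5, AP1G1, LYST and MC1R were called higher. In SkMel28 the same scaling gave 6 lower and 1 higher, with 7.36% of all genes called.

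**Figure D1:**
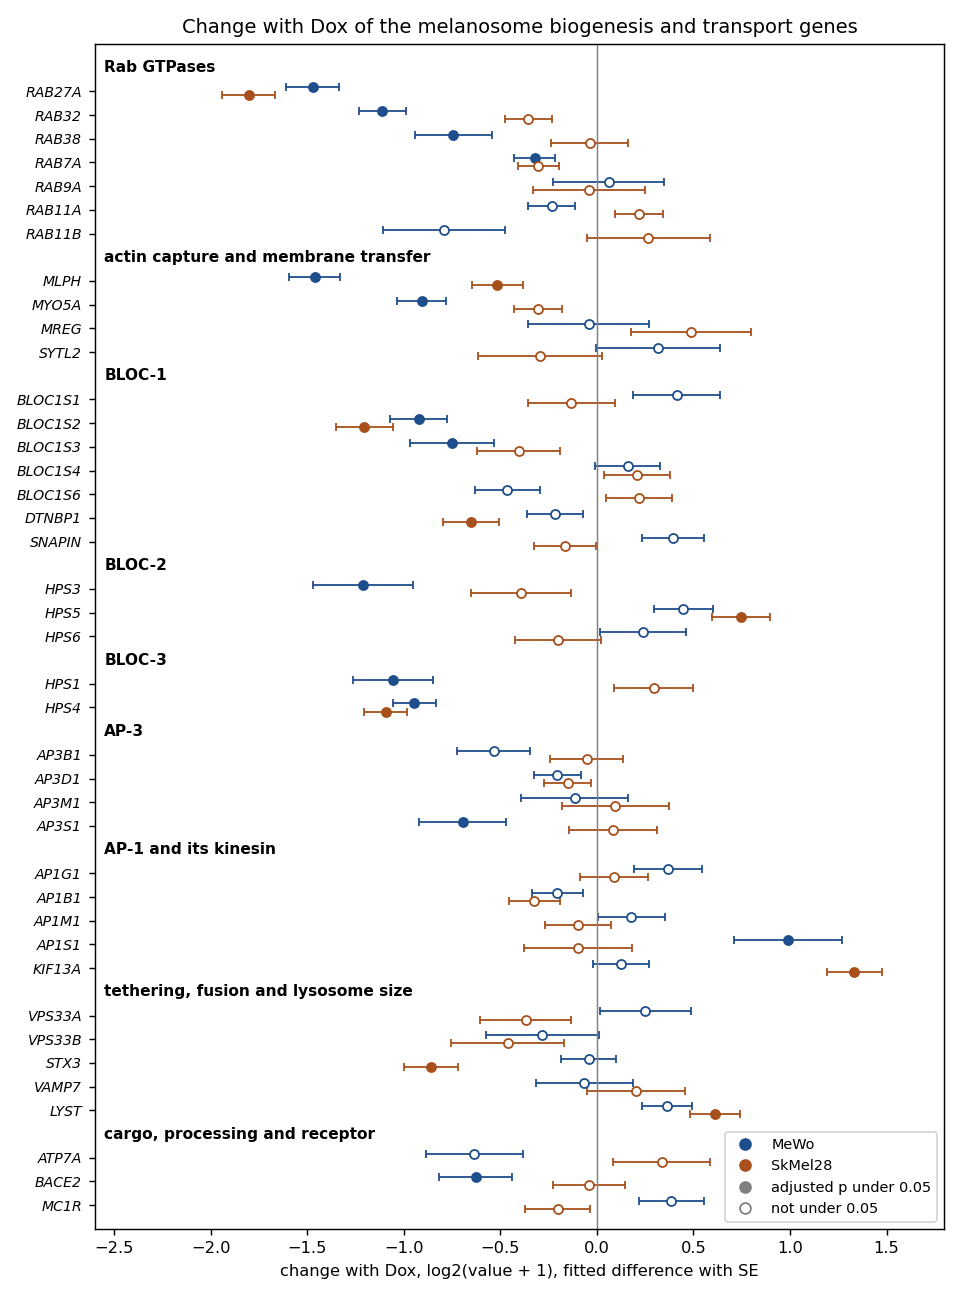
Fitted change with Dox of each of the 40 members (x axis, log2 of value + 1, with SE bars) in MeWo (blue) and SkMel28 (orange), grouped by role (y axis), with filled points at an adjusted p under 0.05. RAB27A is at -1.47 in MeWo and -1.80 in SkMel28, while KIF13A is at 0.12 in MeWo and 1.33 in SkMel28, and the MeWo point of SYTL2 rests on values of at most 3.03.

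All 3 parts of the actin capture complex, RAB27A, MLPH and MYO5A, were called lower in MeWo, where 8.12% of all genes were. RAB27A (chr15:55202966-55319113, hg38, minus strand), the GTPase on mature melanosomes, was at 167, 161 and 172 normalised reads in MeWo control and at 71.2, 63.7 and 46.4 with Dox. SkMel28 held 246, 219 and 251 without Dox and 68.0, 67.5 and 67.4 with it. Dox and control libraries did not overlap in either line. The change was -1.47 ± 0.14 in MeWo (adjusted p = 9.53e-07), a mean 63.8% lower, and -1.80 ± 0.14 in SkMel28 (adjusted p = 2.5e-07), a mean 71.7% lower. The difference between the lines, 0.33 with a 95% interval of -0.08 to 0.74, was not called (adjusted p = 0.302).

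MLPH (chr2:237485428-237555322, plus strand), the linker between RAB27A and the motor, was at 206, 232 and 210 in MeWo control and at 91.9, 80.7 and 63.3 with Dox. Its SkMel28 values were 336, 287 and 362 without Dox and 222, 231 and 233 with it. All Dox libraries were below all controls of their line. The change was -1.46 ± 0.13 in MeWo (adjusted p = 6.76e-07) and -0.51 ± 0.13 in SkMel28 (adjusted p = 0.0179). The SkMel28 call was lost in 5 of 22 alternatives, 4 of which left out a SkMel28 library: control replicate 1 (adjusted p = 0.0663) or 3 (adjusted p = 0.101), or Dox replicate 1 (adjusted p = 0.0740) or 2 (adjusted p = 0.0618).

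MYO5A (chr15:52307281-52529132, minus strand), the motor itself, was at 117, 110 and 115 in MeWo control and at 66.4, 63.3 and 52.2 with Dox. Its SkMel28 values were 90.5, 79.0 and 88.9 without Dox and 71.8, 72.2 and 64.4 with it. Groups did not overlap in either line. MYO5A fell in MeWo (-0.91 ± 0.13, adjusted p = 6.83e-05), while the SkMel28 difference of -0.31 ± 0.13 did not pass the test (adjusted p = 0.140). Of the other genes of this role, MREG, which acts in melanosome transfer and positioning, was at -0.04 in MeWo and 0.49 in SkMel28, without a call. SYTL2, a RAB27A effector, was at -0.29 in SkMel28, without a call, and at 0.339 to 3.03 normalised reads over the MeWo libraries, too low for a fold change there.

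**Figure D2:**
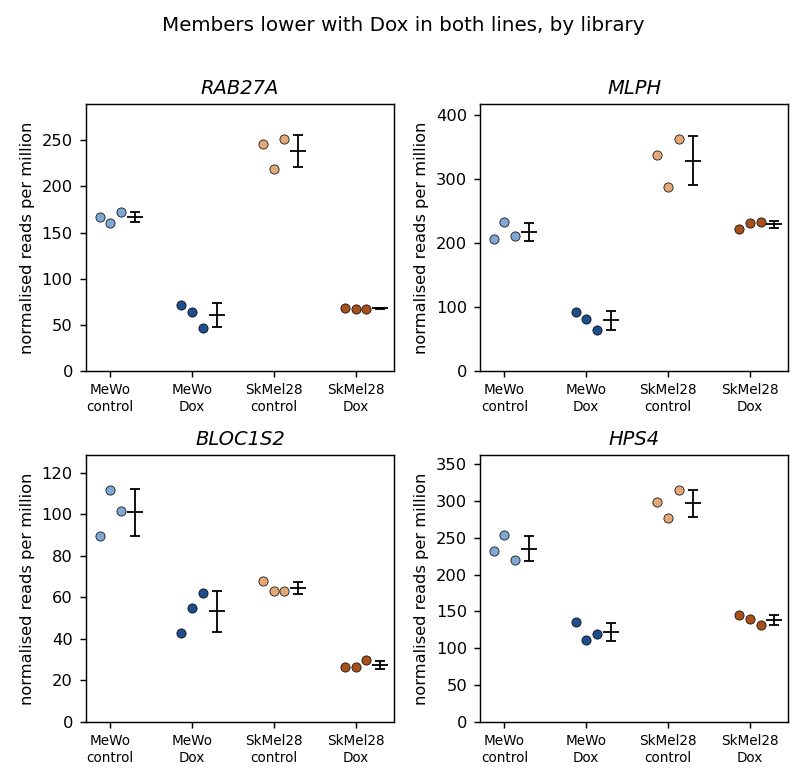
Normalised reads (y axis, from 0) of the 4 members lower with Dox in both lines, with 1 point per library, and the mean and SD of 3 libraries beside the points. In each panel the 3 Dox libraries of a line lie below its 3 control libraries, for RAB27A at 46.4 to 71.2 against 161 to 172 in MeWo.

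Among the other Rab GTPases, RAB32 (chr6:146543833-146554953, plus strand), which directs pigment enzymes to maturing melanosomes, was at 167, 197 and 161 in MeWo control and at 90, 71.6 and 79.9 with Dox. The SkMel28 libraries held 167, 149 and 155 without Dox and 129, 116 and 123 with it. The groups did not overlap in either line, and the MeWo gap was the wider. RAB32 fell in MeWo (-1.11 ± 0.12, adjusted p = 5.45e-06), whereas the SkMel28 difference of -0.35 ± 0.12 did not pass (adjusted p = 0.0741).

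RAB38 (chr11:88113251-88175443, minus strand), the close relative of RAB32, was at 214, 246 and 261 in MeWo control and at 168, 108 and 161 with Dox. Its SkMel28 values overlapped between groups, at 172, 233 and 154 without Dox and 220, 198 and 131 with it. The MeWo change of -0.74 ± 0.20 passed the test (adjusted p = 0.0161) and the SkMel28 difference was -0.04 ± 0.20 (adjusted p = 0.943). Leaving out MeWo control replicate 2 (adjusted p = 0.0627) or 3 (adjusted p = 0.0727), or MeWo Dox replicate 2 (adjusted p = 0.0821), ended the MeWo call. The last 500 bases of all 3 annotated RAB38 transcripts overlap a non-coding RNA on the opposite strand. The counting strand is not stated, so reads there are uncertain.

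RAB7A (chr3:128693669-128825942, plus strand), the late endosome and lysosome GTPase, was at 492, 493 and 506 in MeWo control and at 354, 436 and 406 with Dox, with no overlap. Its change of -0.32 ± 0.11 was near the threshold (adjusted p = 0.0444). The call held in 6 of 22 alternatives and was lost when any 1 library was left out other than MeWo Dox replicate 2 or SkMel28 Dox replicate 3, at adjusted p of 0.0521 to 0.132. In SkMel28, at 548, 571 and 554 without Dox and 451, 414 and 493 with it, the difference was of like size, -0.30 ± 0.11 (adjusted p = 0.0797). The recycling Rab proteins RAB11A and RAB11B and the late endosome RAB9A were called in neither line. RAB11B showed the lowest MeWo value among the members not called, -0.79 (adjusted p = 0.0978), with 89.7 in MeWo Dox replicate 1 and 29.2 and 31.2 in the other two, against 74.6 to 77.5 in control.

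Both subunits of BLOC-3 were called lower in MeWo, where 8.12% of all genes were. HPS4 alone passed the test in SkMel28, where 5.04% of all genes were called lower. HPS4 (chr22:26443107-26483931, minus strand) was at 232, 254 and 220 in MeWo control and at 135, 111 and 119 with Dox. For SkMel28 the values were 298, 277 and 315 without Dox and 145, 140 and 131 with it. Every Dox library was below every control of its line. The changes were -0.95 ± 0.11 in MeWo (adjusted p = 1.24e-05) and -1.09 ± 0.11 in SkMel28 (adjusted p = 5.09e-06), and their difference of 0.15, with a 95% interval of -0.19 to 0.48, was not called.

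HPS1 (chr10:98410939-98446963, minus strand), the partner of HPS4, was at 53.8, 54.8 and 53.8 in MeWo control and at 36.1, 20.5 and 22.4 with Dox. In SkMel28 it was at 57.6, 36.8 and 57.5 without Dox and at 53.1, 59.5 and 71.9 with it. The groups were apart in MeWo and overlapped in SkMel28. HPS1 fell in MeWo (-1.06 ± 0.21, adjusted p = 0.00173) and was at 0.29 ± 0.21 in SkMel28 (adjusted p = 0.430). The last 500 bases of some annotated transcripts overlap another listed gene, in 4 of 57 for HPS1 (PYROXD2, same strand) and in 4 of 49 for HPS4 (ASPHD2, opposite strand). For 53 of the 57 HPS1 transcripts they also overlap a same-strand protein-coding gene, ENSG00000289758, that has no value in the expression table. The strand used for counting is not stated, so reads there cannot be assigned with certainty.

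BLOC-1, the endosomal sorting complex, had 2 of its 7 measured subunits lower in MeWo and 2 in SkMel28, with 1 shared (28.6% in each line, where 16.7% and 10.9% of all genes were called). BLOC1S2 (chr10:100273280-100286680, minus strand) was that subunit, at 89.3, 112 and 102 in MeWo control and at 42.8, 54.6 and 62.0 with Dox. SkMel28 libraries were at 67.9, 62.8 and 62.8 without Dox and at 26.4, 26.4 and 29.6 with it. Groups did not overlap in either line. The change was -0.92 ± 0.15 in MeWo (adjusted p = 0.000296) and -1.20 ± 0.15 in SkMel28 (adjusted p = 3.39e-05), a mean 57.4% lower.

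BLOC1S3 (chr19:45178784-45216933, plus strand) was at 23.9, 17.5 and 13.3 in MeWo control and at 11.2, 10.6 and 8.81 with Dox (-0.75 ± 0.22, adjusted p = 0.0250). In SkMel28 it was at 17.3, 14.6 and 19.5 without Dox and at 12.5, 12.4 and 13 with it (-0.41 ± 0.22, adjusted p = 0.274). The groups did not overlap in either line, at low values. The last 500 bases of all 6 annotated transcripts of BLOC1S3 overlap MARK4 on the same strand, so its reads are uncertain. The MeWo call was lost without MeWo control replicate 1 (adjusted p = 0.128) or 2 (adjusted p = 0.0705), or without MeWo Dox replicate 3 (adjusted p = 0.1004).

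DTNBP1 (chr6:15522807-15663058, minus strand), which encodes dysbindin, was at 154, 173 and 192 in SkMel28 control and at 96.8, 106 and 127 with Dox. In MeWo it was at 97, 91.3 and 101 without Dox and at 67.7, 97.8 and 85.4 with it. Only the SkMel28 groups were apart. The SkMel28 change of -0.65 ± 0.14 passed the test (adjusted p = 0.00646) and the MeWo difference of -0.22 ± 0.14 did not (adjusted p = 0.335), though the difference between the lines was not called either (0.44, adjusted p = 0.195). The other subunits, BLOC1S1, BLOC1S4, BLOC1S6 and SNAPIN, were between -0.46 and 0.41 in MeWo and between -0.17 and 0.22 in SkMel28, and none passed the test.

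In BLOC-2, HPS3 fell in MeWo and HPS5 rose in SkMel28. HPS3 (chr3:149129638-149173732, plus strand) was at 31.7, 30.7 and 32.4 in MeWo control and at 22.7, 8.72 and 11.2 with Dox. In SkMel28 it was at 54.0, 33.0 and 54.8 without Dox and at 37.4, 33.8 and 33.5 with it. The groups were apart in MeWo and overlapped in SkMel28, where control replicate 2 was low. HPS3 fell in MeWo (-1.21 ± 0.26, adjusted p = 0.00362, and 0.0957 with the line fitted alone) and was at -0.39 ± 0.26 in SkMel28 (adjusted p = 0.394). The last 500 bases of 4 of its 7 annotated transcripts overlap the gene CP on the opposite strand. With the counting strand not stated, reads there are uncertain.

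HPS5 (chr11:18278668-18322198, minus strand) was at 34.8, 35.2 and 34.1 in SkMel28 control and at 64.1, 58.5 and 54.4 with Dox. In MeWo it was at 20.4, 22.5 and 27.9 without Dox and at 36.1, 30.7 and 30.5 with it. All Dox libraries were above all controls of their line. HPS5 rose in SkMel28 (0.75 ± 0.15, adjusted p = 0.00338), and the MeWo difference of 0.45 ± 0.15 narrowly missed the threshold (adjusted p = 0.0516). Scaled to spike-ins, the call was lost in SkMel28 (adjusted p = 0.0585) and made in MeWo (0.71, adjusted p = 0.0168). HPS6, the remaining subunit, was at 0.24 and -0.20 and was not called.

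AP-3 is the adaptor that carries tyrosinase from endosomes. Of its 4 measured subunits 1 was called in MeWo (25%, where 16.7% of all genes were). In SkMel28 none was, where 10.9% of all genes were. AP3S1 (chr5:115841592-115914081, plus strand) was at 36.3, 38.1 and 43.1 in MeWo control and at 36.4, 19.0 and 19.3 with Dox. The groups overlapped, since MeWo Dox replicate 1 lay within the control range. The MeWo change was -0.69 ± 0.23 (adjusted p = 0.0437), and -0.99 without that library. Its SkMel28 values of 57.9, 34.3 and 49.4 without Dox and 53.4, 51.1 and 42.9 with it overlapped as well (0.08 ± 0.23). The MeWo call held in 7 of 22 alternatives, and among single libraries left out only with MeWo Dox replicate 1 or SkMel28 control replicate 1 or 2, the adjusted p being 0.0516 to 0.175 without any other. AP3B1, AP3D1 and AP3M1 were between -0.53 and -0.11 in MeWo and between -0.15 and 0.10 in SkMel28, without a call.

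AP-1 and its kinesin held the members that rose most. KIF13A (chr6:17759183-17987635, minus strand), the kinesin that carries AP-1 endosomes towards melanosomes, was at 41.2, 34.3 and 39.1 in SkMel28 control and at 107, 99.6 and 87.0 with Dox. In MeWo it was at 51.8, 62.2 and 64.1 without Dox and at 73.7, 57.6 and 63.3 with it. The SkMel28 groups were far apart and the MeWo groups overlapped. KIF13A rose by 1.33 ± 0.14 in SkMel28 (adjusted p = 8.79e-06), a mean 2.56 times the control, and was at 0.12 ± 0.14 in MeWo (adjusted p = 0.599).

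AP1S1 (chr7:101154456-101161596, plus strand), a small AP-1 subunit, was at 51.5, 57.9 and 62.5 in MeWo control and at 62.6, 143 and 167 with Dox. Replicate 1 of the Dox group was barely above the highest control, and the other two were well above it. AP1S1 rose in MeWo (0.99 ± 0.28, adjusted p = 0.0219), and by 1.42 without replicate 1. Leaving out any 1 of the 3 MeWo controls or MeWo Dox replicate 2 or 3 ended the call, at adjusted p of 0.0784, 0.0675 and 0.0503 for controls 1 to 3 and of 0.0912 and 0.125 for Dox replicates 2 and 3. In SkMel28 its values of 61.3, 104 and 62.5 without Dox and 76.0, 54.5 and 78.3 with it overlapped (-0.10 ± 0.28). AP1G1, AP1B1 and AP1M1 were called in neither line.

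Among the tethering and fusion factors, STX3 (chr11:59713456-59805882, plus strand), a membrane fusion syntaxin used in delivery to melanosomes, was at 69.6, 83.5 and 71.7 in SkMel28 control and at 38.0, 42.1 and 42.3 with Dox. In MeWo it was at 72.0, 74.6 and 66.1 without Dox and at 56.8, 73.9 and 77.2 with it. The SkMel28 groups did not overlap and the MeWo groups did. STX3 fell in SkMel28 (-0.86 ± 0.14, adjusted p = 0.000557) and was at -0.04 ± 0.14 in MeWo (adjusted p = 0.882).

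LYST (chr1:235661041-235883724, minus strand), the gene of Chediak-Higashi syndrome, which limits lysosome and melanosome size, was at 114, 113 and 101 in SkMel28 control and at 170, 178 and 155 with Dox. In MeWo it was at 71.1, 73.8 and 82.9 without Dox and at 106, 81.9 and 108 with it. The SkMel28 groups were apart, and in MeWo 1 Dox library fell inside the control range. LYST rose in SkMel28 (0.61 ± 0.13, adjusted p = 0.00453, and 0.106 with spike-in scaling), while the MeWo difference of 0.36 ± 0.13 did not pass (adjusted p = 0.0631). VPS33A, VPS33B and VAMP7 were called in neither line, with 6.98 to 21.1 normalised reads in every library.

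Of the cargo genes, BACE2 (chr21:41167801-41282530, plus strand), the protease that cleaves the fibril protein PMEL, was at 754, 840 and 815 in MeWo control and at 800, 394 and 444 with Dox. Replicate 1 lay among the controls and the other two were far below. The MeWo change was -0.63 ± 0.19 (adjusted p = 0.0295), and -0.94 without replicate 1. In SkMel28 BACE2 was at 475, 370 and 421 without Dox and at 375, 413 and 439 with it, which overlap (-0.04 ± 0.19). The MeWo call held in 13 of 22 alternatives and was lost with any 1 MeWo control left out (adjusted p = 0.0576, 0.108 and 0.0896) or with Dox replicate 2 (adjusted p = 0.144) or 3 (adjusted p = 0.129) left out. The copper pump ATP7A was at -0.63 in MeWo (adjusted p = 0.0942) and 0.34 in SkMel28, and the melanocortin receptor MC1R was at 0.39 and -0.20, without a call. ATP7A is uncertain too, since the last 500 bases of its 57 transcripts overlap PGK1 on the same strand.

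**Figure D3:**
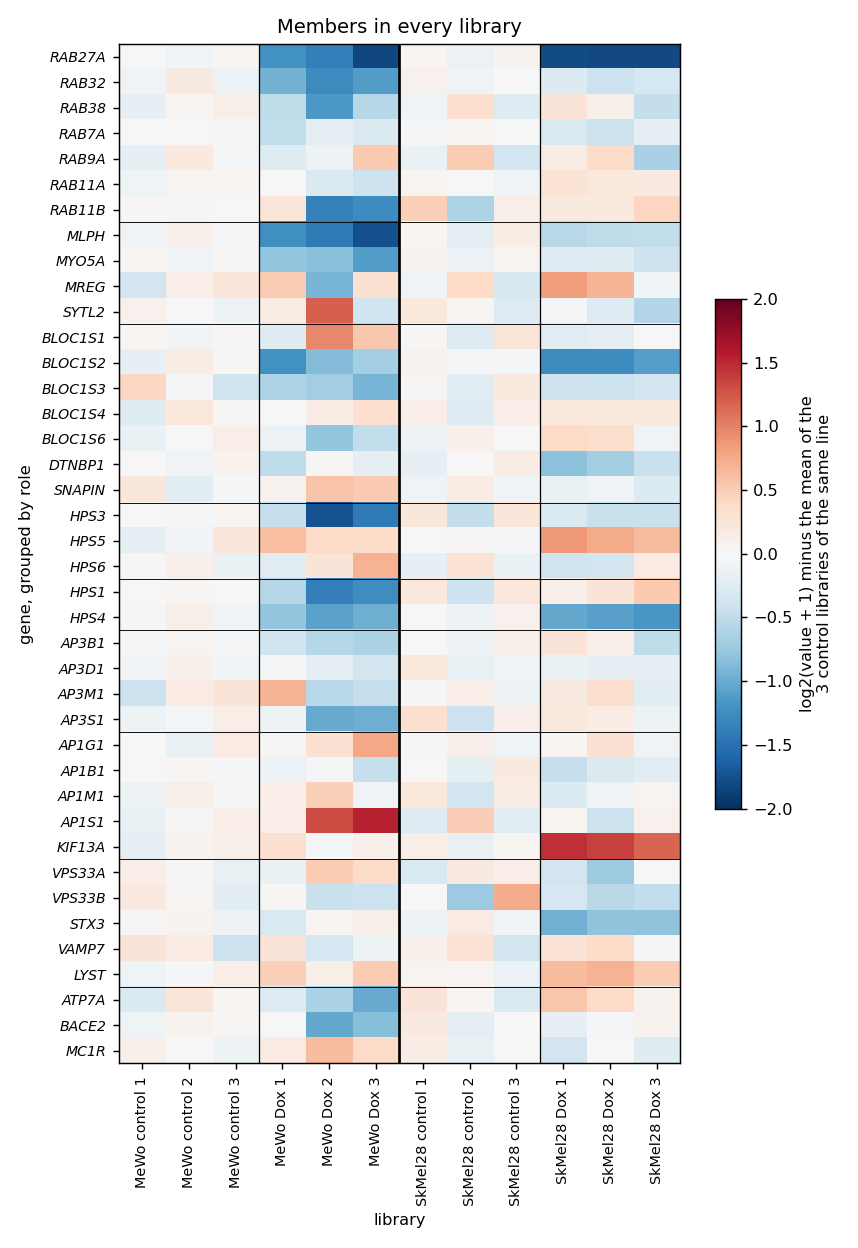
Every member (rows, by role) in every library (columns), coloured by log2(value + 1) minus the mean of the 3 control libraries of the same line, blue below and red above. RAB27A, BLOC1S2 and HPS4 are blue in all 6 Dox libraries, and for BACE2 and AP3S1 the first MeWo Dox library lies within the control range.

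The next comparison asked whether the change with Dox differed between the lines, tested as MeWo minus SkMel28 in a single fit. It was called for 6 of the 40 members (15%), 5 with a lower and 1 with a higher value, where 7.09% of all genes were called (3.38% lower and 3.71% higher). The change was more negative in MeWo for MLPH (-0.95 ± 0.19, adjusted p = 0.00596), RAB32 (-0.76 ± 0.17, adjusted p = 0.0141) and MYO5A (-0.60 ± 0.18, adjusted p = 0.0492). HPS1 differed by -1.35 ± 0.29 (adjusted p = 0.0106). The difference for KIF13A, which rose in SkMel28, was -1.21 ± 0.20 (adjusted p = 0.00167), and for STX3, which fell in SkMel28, it was 0.82 ± 0.20 (adjusted p = 0.0201).

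The share of all genes called in 1 line alone was not computed. Of the 15 members called in 1 line alone, the difference between the lines was called for 5, HPS1, KIF13A, MYO5A, RAB32 and STX3. For the remaining 10, such as RAB38 (-0.71, 95% interval -1.30 to -0.12, adjusted p = 0.126) and BACE2 (-0.59, -1.15 to -0.03, adjusted p = 0.178), a difference between the lines was not shown. The MYO5A difference held in 5 of 21 alternatives, and was lost when any library but MeWo Dox replicate 1 was left out, at adjusted p of 0.0540 to 0.119. The RAB32 difference was lost without MeWo control replicate 2 (adjusted p = 0.0545), and the STX3 difference without MeWo control replicate 3 (adjusted p = 0.0609), MeWo Dox replicate 3 (adjusted p = 0.0533), SkMel28 control replicate 2 (adjusted p = 0.0604) or SkMel28 Dox replicate 1 (adjusted p = 0.0609). Without MeWo Dox replicate 1 the count was 19 members, 13 with a lower and 6 with a higher value, and 24.7% of all genes. Scaling to the spike-ins moved the median of all genes by 0.32, and the 6 members then called, 1 lower and 5 higher where the authors' scaling gave 5 and 1, kept HPS1 (-0.99, adjusted p = 0.0472) and STX3 (1.18, adjusted p = 0.00626) and lost RAB32, MLPH, MYO5A and KIF13A.

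**Figure D4:**
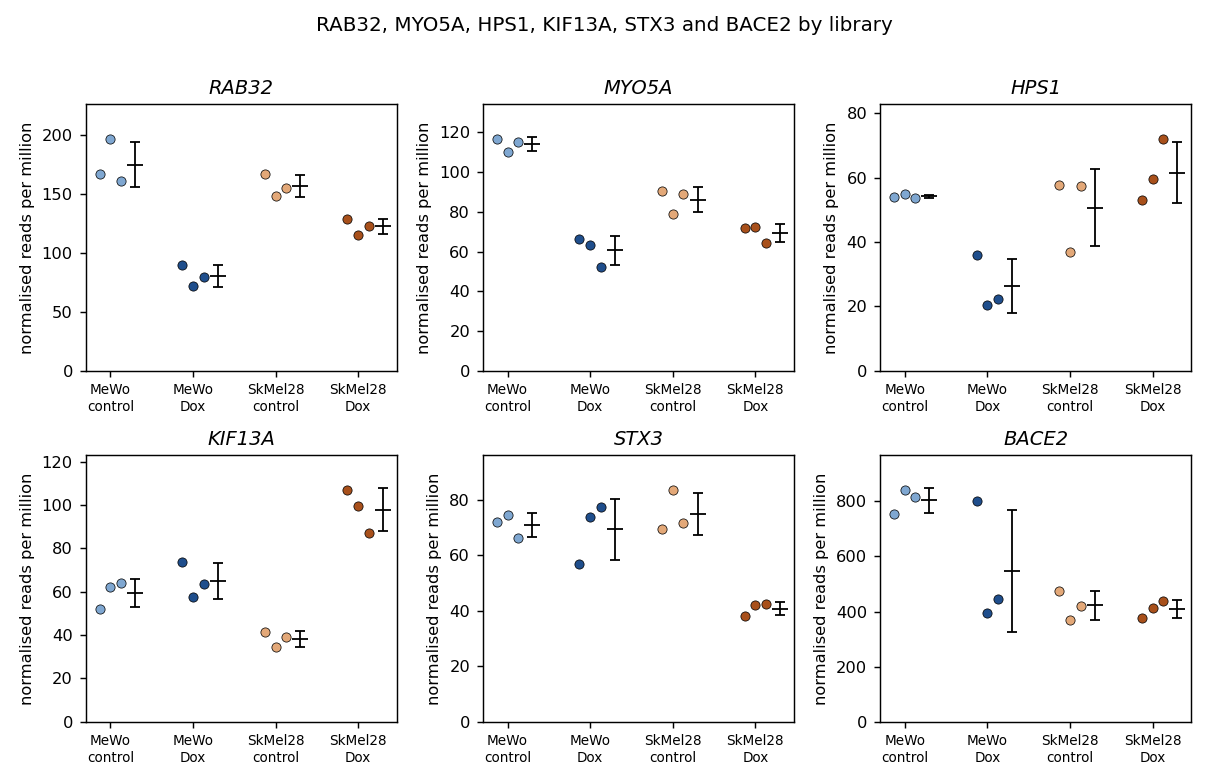
Normalised reads (y axis, from 0) of 5 of the 6 members whose change with Dox differed between lines, and of BACE2, with 1 point per library and the mean and SD of 3 libraries. KIF13A lies at 34.3 to 41.2 in SkMel28 control and at 87.0 to 107 with Dox, and in the BACE2 panel MeWo Dox replicate 1, at 800, lies among the MeWo controls.

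Without Dox the machinery differed between the lines about as often as other genes did. SkMel28 and MeWo controls differed in 19 of 40 members (47.5%), 9 higher and 10 lower in SkMel28, where 51.4% of all genes were called (26.6% higher and 24.8% lower). Scaled to the spike-ins, which moved the median of all genes by 0.13, the split was 11 higher and 4 lower, with 46.5% of all genes called. These controls also enter the Dox comparisons above. The 19 include SYTL2, which is described without a test. Every gene of the table has a value of at least 1 in 3 or more libraries, and SYTL2 reached 1 in no MeWo control and in 1 MeWo Dox library (3.03), so it entered the table through SkMel28, where it is high. It was at 0.648 to 0.864 in MeWo control and at 29.5 to 41.5 in SkMel28 control, or 7 reads against 342, a ratio of 47.7 (95% exact counting interval 22.9 to 120). Besides SYTL2, MC1R and BLOC1S4 were called with a difference of at least 2-fold, where 26.4% of all genes were.

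MC1R, the receptor for melanocyte-stimulating hormone, was at 20.2, 18.6 and 17.5 in MeWo control and at 45.9, 37.1 and 41.8 in SkMel28 control, without overlap (1.11 ± 0.17, adjusted p = 2.96e-05). The last 500 bases of 3 of its 4 annotated transcripts overlap a same-strand protein-coding gene, ENSG00000198211. That gene has no value in the expression table, so the MC1R reads are uncertain. BLOC1S4 was at 33.4, 46.2 and 40.5 in MeWo control and at 21.2, 15.9 and 21.1 in SkMel28 control, again without overlap (-1.01 ± 0.17, adjusted p = 8.46e-05). Over all members the lowest and highest control means were 0.763 (SYTL2) and 803 (BACE2) in MeWo, and 7.84 (ATP7A) and 557 (RAB7A) in SkMel28. Such 3′ end values are not divided by transcript length.

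Genes of the wider pathway that are not on the list, among them further Rab GTPases, adaptor and tethering subunits and melanosome ion transporters, were read the same way. Of 54 such genes 50 were measured. In MeWo 11 of the 50 were called (22%, against 16.7% of all genes), 2 higher and 9 lower, with a median of -0.002. In SkMel28 7 were called (14%, against 10.9%), 1 higher and 6 lower, with a median of -0.21. Without MeWo Dox replicate 1 these counts were 21 and 17, where 31.0% and 16.2% of all genes were called. In MeWo the count was 6 without control replicate 2 (10.2% of all genes), 7 without control replicate 3 (10.5%) and 7 without Dox replicate 2 (11.7%). The transporter SLC45A2, a pigmentation gene mutated in albinism, was at 529 to 577 in MeWo control and 145 to 211 with Dox, and at 402 to 445 in SkMel28 control and 128 to 151 with Dox. It was lower in both lines without overlap (-1.76 ± 0.13, adjusted p = 8.58e-08, and -1.61 ± 0.13, adjusted p = 4.99e-07).

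The melanosomal cation channel TPCN2 moved in opposite directions. It was at 683 to 764 in MeWo control and 389 to 423 with Dox (-0.84 ± 0.12, adjusted p = 0.000109), and at 13.6 to 16.9 in SkMel28 control and 26.1 to 32 with Dox (0.88 ± 0.12, adjusted p = 0.000107). The difference between these changes was -1.72 ± 0.17 (adjusted p = 1.66e-05). RAB1A, which acts between the endoplasmic reticulum and Golgi, fell in MeWo from 184 to 209 down to 74.3 to 118 (-1.09 ± 0.14, adjusted p = 3.12e-05). RAB17, a recycling endosome GTPase, fell in SkMel28 from 353 to 433 down to 178 to 190 (-1.04 ± 0.14, adjusted p = 0.000118).

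The remaining members stayed without a call in either line and in the difference between lines. Changes of these 21 genes (log2) lay between -0.79 for RAB11B and 0.41 for BLOC1S1 in MeWo, and between -0.46 for VPS33B and 0.49 for MREG in SkMel28. Some of these intervals still hold a 2-fold change: for RAB11B the MeWo interval was -1.46 to -0.12, and for ATP7A it was -1.16 to -0.11. A missed threshold therefore does not show that these genes kept their level. Without MeWo Dox replicate 1, RAB11A, RAB11B, BLOC1S6, AP3B1 and ATP7A were added as lower and BLOC1S1, SNAPIN, AP1G1 and MC1R as higher in MeWo.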

How the data were processed

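RNA from 12 libraries of MeWo and SkMel28 was sequenced from transcript 3′ ends. The values deposited by the authors are a normalised signal, reads divided by an effective library size (edgeR, trimmed mean) and multiplied by 1000000. Per the labels, tools were FastQC 0.11.7, cutadapt 2.8 and STAR 2.5.1b with hg38; the counter, annotation and counting strand are not given in the sources used here. All values were whole multiples of 1 read (within 0.001), so whole reads were recovered. Of 12683 features, 67 spike-ins were set aside.

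Values were tested as log2(value + 1) with limma 3.58.1 (R 4.3.3; lmFit, eBayes with trend), 12 libraries and 4 group means, two-sided, with Benjamini-Hochberg adjustment over 12616 genes and calls at adjusted p under 0.05. Alternatives included edgeR 4.0.16 and DESeq2 1.42.0 on the recovered reads. The fit was also run on simulated counts in which no library stood apart. That run does not bear on the calls that depend on MeWo Dox replicate 1. Members and lists were chosen with earlier results of these data known. Values per library are given for members called in MeWo, SkMel28 or the difference between them, and other pathway genes are named when called in both lines or changed at least 2-fold with a call in 1. The counting interval for SYTL2 is exact (binomial) and covers counting error only, since reads without molecular identifiers are not independent molecules. Gene positions are from GENCODE 44 (hg38), and promoter windows from RefSeq.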

Additional observations from a re-analysis of the deposited data

Results flagged for a closer look

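For 6 members the change with Dox differed between the lines by the test of the difference itself, MeWo minus SkMel28 on the log2 scale. The differences were -0.76 for RAB32, -0.95 for MLPH, -0.60 for MYO5A, -1.35 for HPS1, -1.21 for KIF13A and 0.82 for STX3. MLPH was called lower in both lines, RAB32, MYO5A and HPS1 in MeWo alone, and KIF13A (higher) and STX3 (lower) in SkMel28 alone. HPS1 was the only member of the 6 whose difference was called under every alternative, at -1.59 to -0.99. Line and culture medium cannot be told apart in these differences.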

How the results depend on the processing

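No call of a member with Dox or in the difference between lines, nor that of MC1R or BLOC1S4 between controls, changed direction under any alternative. In MeWo, RAB27A, RAB32, MLPH, MYO5A, BLOC1S2, HPS1 and HPS4 (7 of 14) kept their call under all 22 alternatives, and in SkMel28, RAB27A, BLOC1S2, DTNBP1, HPS4, KIF13A and STX3 (6 of 9). Members called in MeWo (14) numbered 9 without a mean-variance trend (13.4% of all genes called), 7 with the line fitted alone (6.44%) and 8 to 22 with 1 library left out (10.2% to 31.0%). Calls of the difference between lines (6) numbered 3 without a trend (4.39%) and 4 to 19 with 1 library left out (3.56% to 24.7%). Leaving out 1 library gave 8 to 11 in SkMel28 (6.21% to 16.2%) and 15 to 22 between controls (45.1% to 56.6%). Other pathway genes called in MeWo (11) numbered 7 without a trend (13.4% of all genes called) and 3 with the line alone (6.44%). With 1 library left out they numbered 6 to 21 (10.2% to 31.0%). In SkMel28 (7) they numbered 14 with the line alone (12.3%) and 5 to 17 with 1 library left out (6.21% to 16.2%). Each highest count with 1 library left out came without MeWo Dox replicate 1. MITF in SkMel28 was at -0.49 with an adjusted p of 0.05002 without a trend. With edgeR 12, 9 and 5 members were called in MeWo, SkMel28 and the difference, where 16.2%, 11.2% and 6.33% of all genes were. With DESeq2 the counts were 12, 9 and 7, where 14.8%, 10.7% and 9.9% of the genes with an adjusted p were called.

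With replicate number as a block, 13 members were called in MeWo (15.7% of all genes called) and 9 in SkMel28 (9.44%). There were 5 in the difference (6.5%) and 19 between controls (50.5%). The losses were RAB7A (adjusted p = 0.0626) and the MYO5A difference (adjusted p = 0.0637). Same-numbered control and Dox libraries deviated with correlations of -0.30, -0.07 and 0.05 in MeWo and -0.10, 0.12 and 0.29 in SkMel28, and the labels tie no number to a shared culture, so the libraries were not treated as pairs. Precision is limited by 3 libraries a group and by depth: 3 reads equal a value of up to 1.17.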
